A study of Homo sapiens with 22 samples.

Results

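The comparison described here sets Mia-PaCa-2 cells given the tick protein Amblyomin-X against untreated Mia-PaCa-2 cells. It takes 12 of the 22 arrays of the series, 6 treated and 6 untreated, and keeps each Mia-PaCa-2 probe that was measured on 3 or more arrays per group. This left 11604 of the 14257 probes of the series, which read 6336 of its 7302 named genes. Mia-PaCa-2 is an established human line from a pancreatic carcinoma, and the other line of the series, SK-MEL-28, comes from a melanoma. Treated cells received Amblyomin-X at 1 µM for 4 h, and untreated cells were grown in the same serum-containing medium without it. RNA was read on 1-colour CodeLink whole genome arrays. The labels describe each array as a separate cRNA preparation and do not say whether the preparations came from separate cultures, so p-values here cover the spread from array to array only.

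Amblyomin-X is a recombinant Kunitz-type inhibitor from a tick salivary gland. Kunitz domains are small folds held by disulfide bonds that block serine proteases by inserting a loop into the active site, and tick proteins of this family are known as anticoagulants that act on factor Xa. Going by its title, the study asked about death of tumour cells, the cell cycle and the ubiquitin-proteasome system. The proteasome degrades proteins tagged with ubiquitin. When misfolded proteins build up, cells activate ATF4, a transcription factor that turns on genes for amino acid supply, redox balance and, under lasting stress, cell death.

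Untreated arrays 4 and 5 stood apart from the other 10 arrays before any comparison. Each array was fitted by the mean profiles of both lines over 5195 shared probes. On the other 10 arrays the weights were 0.958 to 1.03 for Mia-PaCa-2 and -0.0306 to 0.0459 for SK-MEL-28. On untreated arrays 4 and 5 these weights were 0.59 to 0.595 and 0.513, so both arrays carry the profiles of both lines. RNA of mixed origin and mixed cells cannot be told apart in such bulk samples, nor can fewer cells of a type and less RNA per cell. Across probes, the change with treatment correlated with the difference between the lines (SK-MEL-28 minus Mia-PaCa-2) with r = -0.649 when all 12 arrays were used and -0.0427 without those arrays. Changes and list counts are therefore given for all 12 arrays and again for the 10 arrays that remain when untreated arrays 4 and 5 are left out, below called the 12-array and the 10-array comparison. A value given once is from the 12-array comparison unless stated otherwise. Among the remaining untreated arrays, 1 correlated best with 6 (r = 0.945) and 2 with 3 (r = 0.955), against 0.871 to 0.915 between these pairs.

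**Figure D1:**
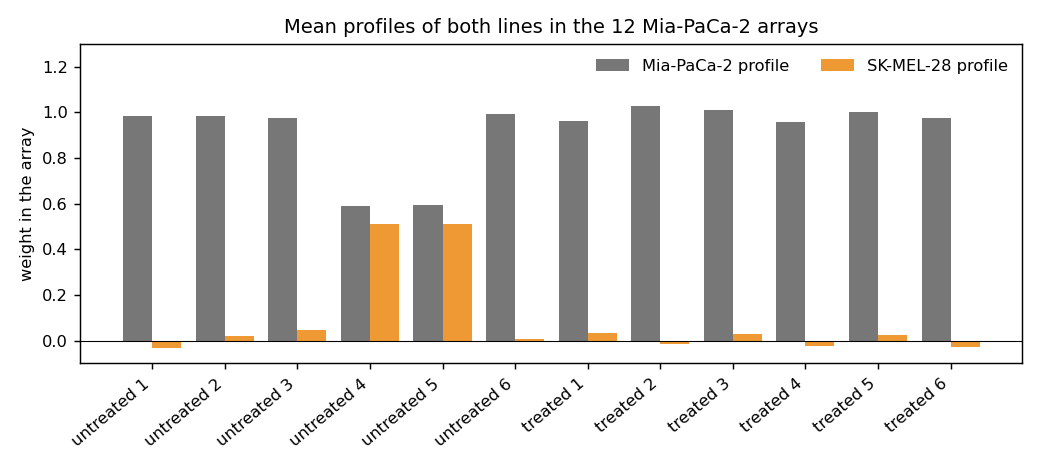
Weight of the mean Mia-PaCa-2 profile (grey) and of the mean SK-MEL-28 profile (orange) in each of the 12 arrays, from a least-squares fit over 5195 probes; the axis starts below 0 to show small negative weights. Untreated arrays 4 and 5 hold SK-MEL-28 weights of 0.513, and the other 10 arrays hold -0.0306 to 0.0459.

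The line was checked against epithelial and other markers. Of 11 epithelial markers 6 were measured, and the keratin KRT18 was among the brightest genes (99.9th percentile of mean level), at 13.08 to 13.75 on untreated and 13.38 to 14.13 on treated arrays, on the log2 scale of normalized intensity. The other measured markers, with their percentile of mean level, were KRT8 (81.2), KRT19 (65.4), LCN2 (60.7), CLDN4 (60.5) and MUC1 (48.1). Of the marker lists for melanocytes (13 genes), mesenchymal, exocrine pancreas and blood cells, 0 genes were named in the Mia-PaCa-2 table, and of the stromal list 1 was (COL1A1). The melanocyte share of untreated arrays 4 and 5 could therefore not be followed through its defining markers.

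Across all probes, limma found none with an adjusted p (Benjamini-Hochberg) under 0.05 in either comparison. The smallest adjusted p was 0.120 in the 12-array and 0.884 in the 10-array comparison. At an unadjusted p under 0.05 by limma, 602 probes were higher (5.19%) and 511 lower (4.4%) in treated cells with 12 arrays, and 344 (2.96%) and 292 (2.52%) with 10 arrays. Leaving out 1 untreated array moved these 12-array counts by more than 1.5 times in 5 cases: to 1021 higher and 866 lower without array 1, to 372 higher and 271 lower without array 5, and to 281 lower without array 4, where the higher count was 408. Centring the single-array intensities on their medians in place of the deposited normalization changed the 12-array split to 696 higher and 351 lower. Everything below is thus a description of values that did not pass the adjusted threshold, and "change" always means the treated minus the untreated mean on the log2 scale, with the standard error of the limma fit.

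Among the 6336 named genes, each read from its brightest probe, 324 were higher (5.11%) and 247 lower (3.9%) at an unadjusted p under 0.05 by limma with 12 arrays. With 10 arrays the counts were 152 (2.4%) and 209 (3.3%). There were 96 higher and 95 lower genes in both counts, and of the 571 genes in the 12-array counts (9.01%) 0 turned sign in the 10-array comparison. The 2 comparisons share 10 arrays and the genes were chosen by their p on them. The choice thus largely fixes the sign, and these tallies are no sign of stability. The median change over all genes was 0.05 with 12 arrays, where 3512 genes (55.4%) had a positive value, and -0.02 with 10 arrays, where 2897 (45.7%) did. Changes of more than 1 in size were seen for 80 genes and 40 genes in turn. In 14 genes every treated array lay above every untreated array (0.223% of 6276 genes with all values), and in 13 every treated array lay below (0.207%).

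The direction of the 12-array comparison moved with brightness. When the genes were cut into 10 equal groups by mean level, in the dimmest group 17 were higher and 62 lower at an unadjusted p under 0.05, whereas in the brightest group 55 were higher and 17 lower. The median changes in these groups were -0.05 and 0.18 with 12 arrays and -0.01 and 0.03 with 10 arrays. The dimmest group, with mean levels of 4.66 to 5.67, holds several genes named below. Among them are LRFN4, SIL1, WARS1, ENO2 and PSMB5 on the lower side. On the higher side LINC01913, OMD, DISC1, TRIM21 and ATF3 belong to it.

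**Figure D2:**
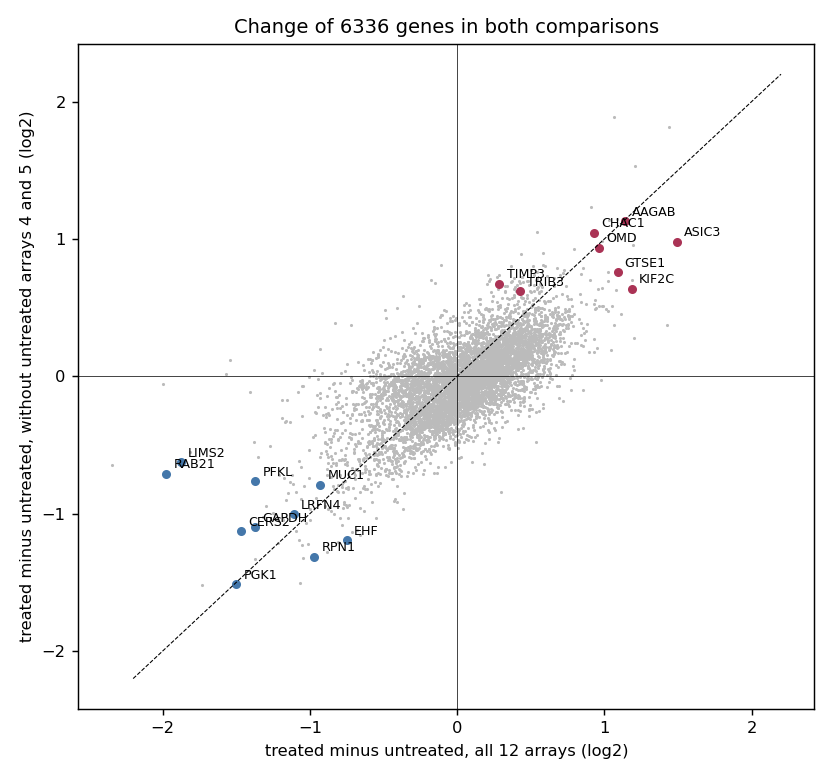
Change of 6336 genes (treated minus untreated, log2) in the 12-array comparison (horizontal) and in the 10-array comparison without untreated arrays 4 and 5 (vertical); each point is 1 gene, and the dashed line marks equal values. CHAC1 lies near the line, at 0.93 and 1.05, whereas RAB21 lies at -1.97 and -0.71, far from it.

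With each gene read from its brightest probe, CHAC1 had the smallest p in both comparisons. A dimmer probe of N4BP2L2, on the lower side, had a smaller p with 12 arrays. CHAC1 is a target of ATF4 and encodes a glutathione-degrading enzyme. Its levels were lowest at 4.76, median 5.20 and highest at 5.76 on untreated arrays and 5.87, 6.15 and 6.52 on treated arrays. No treated array overlapped an untreated one, although untreated array 1 (5.76) and treated array 1 (5.87) lay close together. The change was 0.93 ± 0.20 (1.91-fold, adjusted p = 0.501 by limma) with 12 arrays and 1.05 ± 0.21 with 10 arrays. The CHAC1 probe was dim, and its mean level of 5.73 lay between 5.67 and 5.93, the bounds of the second dimmest of 10 equal groups of genes.

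The list of 42 ATF4 targets and partners was compared around it, and 18 of its genes were measured. In the 12-array comparison 9 had a positive and 9 a negative change, with a median of 0.06 beside 0.05 over all genes, and 4 were higher and 1 lower at an unadjusted p under 0.05. With 10 arrays 12 were positive and 6 negative, the median was 0.14 beside -0.02 over all genes, and 3 were higher and 1 lower. The shares over all genes were 55.4% positive, 5.11% higher and 3.9% lower with 12 arrays, and 45.7%, 2.4% and 3.3% with 10. The 3 higher genes in the 10-array comparison were CHAC1, TRIB3 and ATF3.

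Short promoter windows are shown for the list members with a higher level and a match to the ATF4 element, so that the values can be read beside the sequence they might bear on. ATF4 binds with C/EBP partners to an element whose letters are TGATGNAA, with N any base. This motif was searched on both strands in the 250 bases before the annotated start of each gene (RefSeq, build GRCh38.p14). It was found in 3.14% of 35116 windows of all genes and in 2.47% of the 5301 tested genes with a window. Of the 17 list members with a window 5 held a match, ATF3, CHAC1, ASNS, CEBPG and GARS1. Their changes in the 12-array comparison were 0.50, 0.93, -0.76, 0.59 and -0.08. TRIB3, with a change of 0.43, had no match to these letters in the window. In the sequences, capitals mark the match, which in CHAC1 lies on the other strand, 209 bases before the start. ATF3 and CEBPG have 2 annotated windows each, and the window with the match is printed. The positions are chr15:40953221-40953470 (plus strand) for CHAC1, chr1:212565157-212565406 (plus strand) for ATF3 and chr19:33373863-33374112 (plus strand) for CEBPG.
CHAC1: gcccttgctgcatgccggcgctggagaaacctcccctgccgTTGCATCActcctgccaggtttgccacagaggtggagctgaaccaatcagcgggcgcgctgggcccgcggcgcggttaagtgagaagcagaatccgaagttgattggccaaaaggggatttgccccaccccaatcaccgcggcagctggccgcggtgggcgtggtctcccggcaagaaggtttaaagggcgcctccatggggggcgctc
ATF3: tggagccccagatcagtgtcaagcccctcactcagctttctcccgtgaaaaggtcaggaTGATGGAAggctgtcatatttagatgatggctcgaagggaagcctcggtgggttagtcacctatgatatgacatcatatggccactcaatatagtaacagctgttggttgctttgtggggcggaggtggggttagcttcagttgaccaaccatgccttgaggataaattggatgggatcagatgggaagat
CEBPG: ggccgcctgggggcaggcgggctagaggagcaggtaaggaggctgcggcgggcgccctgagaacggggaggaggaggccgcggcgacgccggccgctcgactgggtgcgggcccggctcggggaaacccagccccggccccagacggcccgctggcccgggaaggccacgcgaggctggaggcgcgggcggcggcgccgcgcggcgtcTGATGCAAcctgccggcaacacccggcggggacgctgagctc

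TRIB3, a pseudokinase that restrains ATF4 signalling, lay at 5.56 to 5.76 on the 4 untreated arrays other than 4 and 5, at 6.24 and 6.25 on arrays 4 and 5, and at 5.89 to 6.61 on treated arrays. The treated arrays thus lay above the 4 untreated arrays but not above arrays 4 and 5. The change was 0.43 ± 0.20 with 12 arrays (adjusted p = 0.501, limma) and 0.62 ± 0.17 with 10.

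ATF3, a stress-induced repressor of transcription, had levels of 4.51, 4.98 and 5.63 (lowest, median, highest) on untreated arrays and 4.84, 5.67 and 5.83 on treated arrays. The groups overlapped through treated array 2 and untreated array 5, and the change was 0.50 ± 0.22 with 12 arrays and 0.62 ± 0.22 with 10. CEBPG, a C/EBP-family partner of ATF4, had a change of 0.59 ± 0.23 with 12 arrays and 0.37 ± 0.22 with 10, and untreated arrays 4 and 5 held its lowest levels (7.33 and 7.31). WARS1, the tryptophanyl-tRNA synthetase, had -0.76 ± 0.29 and -0.76 ± 0.33. ASNS, the asparagine synthetase, had -0.76 ± 0.37 and -0.58 ± 0.41, and ATF4 itself 0.29 ± 0.26 and 0.18 ± 0.29, so the list did not move one way.

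**Figure D3:**
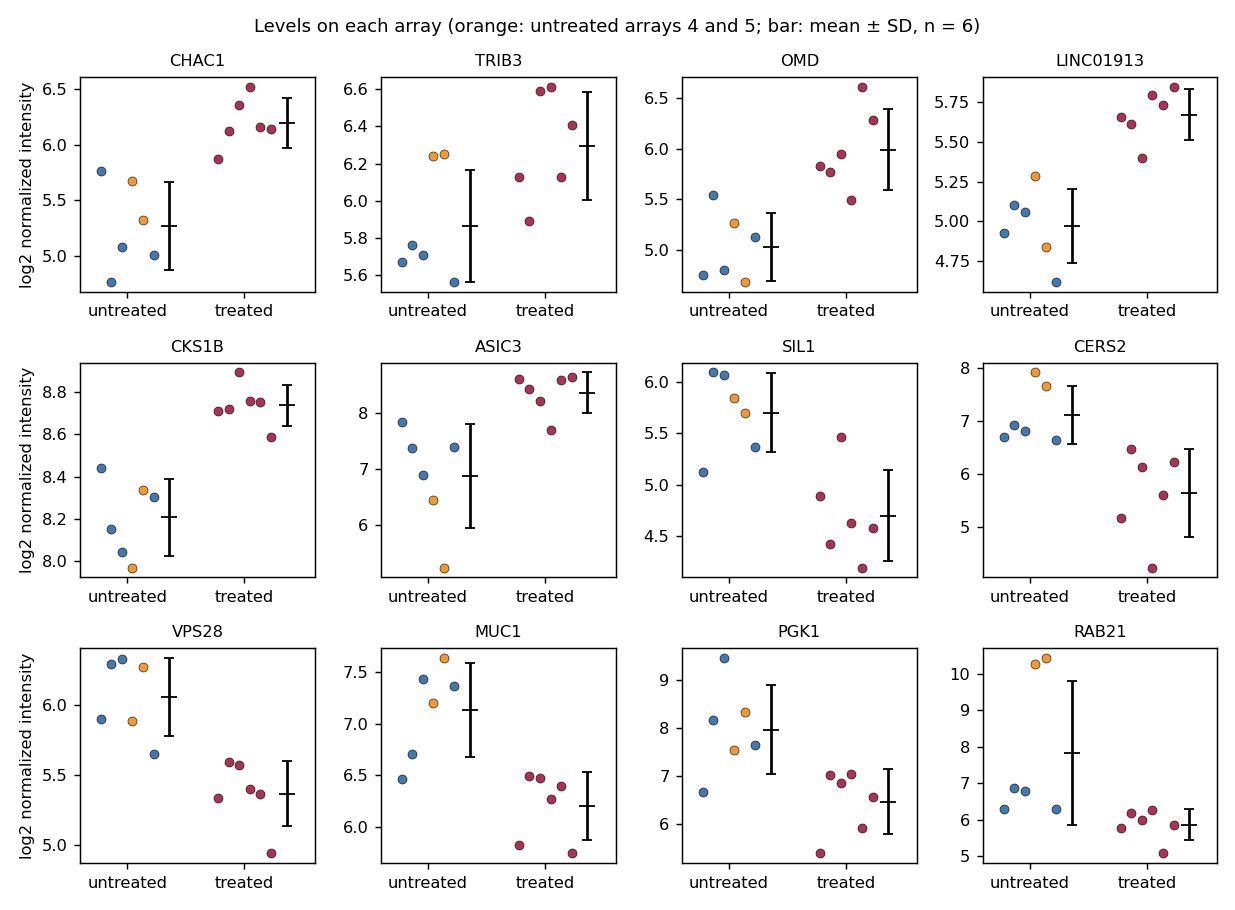
Level of 12 genes on each array (log2 normalized intensity), with untreated arrays in blue, untreated arrays 4 and 5 in orange, treated arrays in dark red, and mean ± SD (n = 6) as bars; the vertical axes do not start at 0. CHAC1, LINC01913 and CKS1B show no overlap of the groups on the higher side and CERS2, VPS28 and RAB21 none on the lower side, and in RAB21 untreated arrays 4 and 5 (10.28 and 10.44) lie far above the rest.

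Other genes with small p on the higher side had unrelated functions. LINC01913, a long non-coding RNA, lay at 4.62 to 5.29 on untreated and at 5.40 to 5.84 on treated arrays, without overlap, with changes of 0.70 ± 0.17 and 0.74 ± 0.16. OMD, an extracellular matrix proteoglycan known as osteomodulin, had changes of 0.96 ± 0.22 and 0.94 ± 0.24, and untreated array 2 (5.54) lay just above the lowest treated array (5.49). ASIC3, an acid-sensing ion channel, was at 8.21 to 8.64 on 5 treated arrays and at 7.69 on treated array 4. Its lowest untreated levels were on arrays 4 (6.44) and 5 (5.23), and its change went from 1.50 ± 0.36 to 0.98 ± 0.23 when these were left out.

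AAGAB, which assists the assembly of clathrin adaptors, varied more among treated arrays (7.81 to 9.88) than among untreated arrays (7.21 to 8.06). Its change was 1.14 ± 0.32 with 12 and 1.13 ± 0.38 with 10 arrays, and its second probe had 0.05 ± 0.26. The scaffold protein DISC1 had a change of 0.85 ± 0.23, the transcriptional repressor ZBTB7A 0.71 ± 0.20 and the histone acetyltransferase KAT6A 0.65 ± 0.18. In the 10-array comparison these were 0.79, 0.60 and 0.57. All of them were above the untreated mean on each treated array, but the groups overlapped.

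A further set of genes was among the 10 with the smallest p on the higher side when untreated arrays 4 and 5 were left out. TRIM21, a ubiquitin ligase that recognises antibody-coated particles in the cytosol, lay at 4.45 to 5.02 on the 4 untreated arrays and at 5.34 to 5.72 on treated arrays. Arrays 4 and 5 held 5.19 and 5.40 for it, the latter within the treated range. The change was 0.60 ± 0.20 with 12 arrays and 0.80 ± 0.17 with 10. The tissue inhibitor of metalloproteinases TIMP3 went from 0.29 ± 0.27 to 0.67 ± 0.19, with arrays 4 and 5 (6.13 and 6.16) above every treated array. EIF1, which guards start codon selection, went from 0.39 ± 0.22 to 0.65 ± 0.17, and a second EIF1 probe had -0.11 ± 0.24. The activin receptor ACVR2B had 0.66 ± 0.19 and 0.71 ± 0.20.

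On the lower side, LRFN4, a leucine-rich repeat adhesion protein of synapses, had the smallest p among brightest probes in the 12-array comparison. Its levels were 5.00, 5.84 and 6.20 (lowest, median, highest) on untreated and 3.96, 4.62 and 5.24 on treated arrays, so that untreated array 1 and treated array 5 overlapped. The change was -1.11 ± 0.24 with 12 arrays and -1.0 ± 0.26 with 10 (adjusted p = 0.501 and 0.884 by limma). The LRFN4 probe lay in the dimmest of 10 equal groups of genes by mean level. In that group 62 genes were lower and 17 higher at an unadjusted p under 0.05 with 12 arrays. CYSLTR2, a leukotriene receptor, had -0.62 ± 0.18 and -0.56 ± 0.18, and MBIP, a component of the ATAC histone acetyltransferase complex, -0.79 ± 0.21 and -0.54 ± 0.17.

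EHF, an ETS factor of epithelial cells, had untreated arrays 4 and 5 on the side of the treated arrays. It lay at 6.37 to 6.96 on the 4 untreated arrays, at 5.64 and 5.19 on arrays 4 and 5, and at 5.72 to 6.06 on treated arrays 2 to 6, with 4.25 on treated array 1. Its change was -0.75 ± 0.35 with 12 and -1.19 ± 0.31 with 10 arrays. The chondroitin synthesis enzyme CHPF2 went from -0.42 ± 0.31 to -0.89 ± 0.22, the carboxylesterase CES2 from -0.57 ± 0.30 to -0.92 ± 0.23 and the armadillo-repeat gene ARMCX2 from -0.66 ± 0.37 to -1.16 ± 0.31. TFAP2A, the transcription factor AP-2 alpha, had -0.70 ± 0.21 and -0.75 ± 0.20, TMEM238 -0.90 ± 0.27 and -0.94 ± 0.25, and the F-box protein FBXL20 -0.50 ± 0.18 and -0.63 ± 0.17, while a second FBXL20 probe had 0.03 ± 0.16.

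Several genes of membrane traffic, lysosomes and lipid metabolism had lower values in treated cells, although the lists they belong to did not move as a whole. CERS2, the ceramide synthase for very long chains, lay at 6.64, 6.87 and 7.92 (lowest, median, highest) on untreated arrays and at 4.23, 5.87 and 6.48 on treated arrays. The groups did not overlap, and untreated arrays 4 and 5 (7.92 and 7.67) were the highest. The change was -1.47 ± 0.36 with 12 arrays and -1.13 ± 0.37 with 10. Of the 17 measured genes of sphingolipid metabolism, CERS2 and PSAP were lower at an unadjusted p under 0.05 in the 12-array comparison and 0 were higher. With 10 arrays 2 were lower and 0 higher. The shares over all genes were 3.9% lower and 5.11% higher with 12 arrays, and 3.3% and 2.4% with 10. The list's median was -0.01 with 12 arrays and -0.06 with 10. SGPL1, another member, had a change of similar size in the other direction, 1.44 ± 0.86 and 1.82 ± 1.03. PSAP, the precursor of the saposins that help lysosomal enzymes break down sphingolipids, had -0.62 ± 0.29 and -0.67 ± 0.33.

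VPS28, a subunit of the ESCRT-I complex that sorts ubiquitin-tagged receptors into endosomes, lay at 5.65 to 6.33 on untreated and at 4.94 to 5.59 on treated arrays, with no overlap. Its change hardly moved when arrays 4 and 5 were left out (-0.69 ± 0.19 and -0.68 ± 0.19). RAB21, an early endosome GTPase, had the largest negative change among the genes without overlap, but its value came mostly from arrays 4 and 5. These arrays held 10.28 and 10.44, the other 4 untreated arrays 6.30 to 6.88 and the treated arrays 5.07 to 6.27, while the median over 8 SK-MEL-28 arrays, which were normalized apart, was 10.68. The change was -1.97 ± 0.68 with 12 arrays and -0.71 ± 0.24 with 10.

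The trans-Golgi GTPase RAB6A (-0.90 ± 0.30 and -0.48 ± 0.22) and the ER-to-Golgi GTPase RAB1A (-0.91 ± 0.34 and -0.38 ± 0.23) followed the same course, with arrays 4 and 5 above all other arrays. Of the 53 measured endocytosis, ESCRT and Rab genes, 23 were positive and 30 negative with 12 arrays, beside 55.4% positive over all genes. At an unadjusted p under 0.05, 2 were higher and 4 lower with 12 arrays, beside 5.11% and 3.9% of all genes. With 10 arrays 1 was higher and 3 lower, beside 2.4% and 3.3%. The medians were -0.06 and -0.05, beside 0.05 and -0.02 over all genes.

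Among 33 measured lysosomal and V-ATPase genes 6 were lower and 1 higher at an unadjusted p under 0.05 with 12 arrays, and 2 and 0 with 10 arrays. Over all genes 3.9% were lower and 5.11% higher with 12 arrays, and 3.3% and 2.4% with 10. The list's medians were 0.01 and -0.08. The aspartic protease cathepsin D (CTSD) lay at 5.66, 6.24 and 7.74 on untreated and 4.71, 5.28 and 5.73 on treated arrays, a change of -1.03 ± 0.31 with 12 and -1.07 ± 0.37 with 10 arrays. Its highest value was on untreated array 3, and untreated arrays 1 and 6 (5.67 and 5.66) lay within the treated range. The carboxypeptidase cathepsin A (CTSA) had -0.83 ± 0.31 and -0.82 ± 0.37 and the alpha-glucosidase GAA -0.75 ± 0.29 and -0.52 ± 0.28. ATP6V1C1, a subunit of the proton pump that acidifies lysosomes, had -0.53 ± 0.20 and -0.36 ± 0.19.

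In the endoplasmic reticulum, SIL1, the nucleotide exchange factor of the chaperone BiP, lay at 5.13, 5.77 and 6.09 on untreated and 4.19, 4.60 and 5.46 on treated arrays. Untreated arrays 1 and 6 overlapped with treated array 3. The change was -1.0 ± 0.24 with 12 and -0.97 ± 0.27 with 10 arrays. The SIL1 probe was dim, with a mean level of 5.20. XBP1, the transcription factor of the unfolded protein response, had a change in the other direction, 0.66 ± 0.29 and 0.66 ± 0.32, with its highest level on treated array 4 (8.91). Of 18 chaperones and unfolded protein response genes, 1 was higher and 1 lower at an unadjusted p under 0.05 with 12 arrays, and 0 and 2 with 10. The shares over all genes were 5.11% and 3.9% with 12 arrays, and 2.4% and 3.3% with 10. The list's median was 0.11 with 12 arrays and -0.06 with 10.

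The oligosaccharyltransferase subunit RPN1, which helps attach sugars to new proteins, had -0.97 ± 0.39 and -1.31 ± 0.41. Its levels were 8.02 and 8.42 on untreated arrays 2 and 3 but 6.32 to 6.59 on the other 4. Treated arrays held 5.36 to 6.70, so the size of its change rested largely on untreated arrays 2 and 3. DAD1, a second subunit of that enzyme, had -0.73 ± 0.30 and -0.44 ± 0.29. SEC61A2, from the same list of translocation and glycosylation genes, went in the other direction, with 0.51 ± 0.23 and 0.22 ± 0.19. For the first value of each, the unadjusted p by limma was 0.0232 for RPN1, 0.0253 for DAD1 and 0.0466 for SEC61A2. In the transport step towards the Golgi, the cargo receptor TMED2 had -1.21 ± 0.36 and -0.72 ± 0.28 and the COPII coat subunit SEC23A -0.42 ± 0.19 and -0.42 ± 0.19. The list of 34 translocation and glycosylation genes had medians of 0.03 and -0.08, and that of 27 COPI, COPII and Golgi genes 0.09 and -0.09.

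Genes of glycolysis had the lowest median of the 51 lists described, in both comparisons. Of 13 measured enzymes and regulators 9 had a negative change, 7 were lower at an unadjusted p under 0.05 and 0 were higher, with a median of -0.77. In the 10-array comparison 8 were negative, again 7 were lower and 0 higher, and the median was -0.63. At that p, 3.9% of all genes were lower and 5.11% higher with 12 arrays, and 3.3% and 2.4% with 10. The members below that value of p were PGK1, PFKL, ENO2, GAPDH, PDK3, ALDOC and GPI in the 12-array comparison. The remaining members had changes from -0.34 (LDHA) to 0.41 (PKM), and TPI1 (0.24) and ENO1 (0.14), both among the brightest genes of the table, were slightly positive.

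PGK1, which makes ATP in the later steps of the pathway, lay at 6.67, 7.91 and 9.47 on untreated and at 5.40, 6.72 and 7.06 on treated arrays. Untreated array 1 held the value within the treated range. The change was -1.50 ± 0.40 with 12 and -1.51 ± 0.48 with 10 arrays. GAPDH lay at 10.86 on untreated array 1, 11.65 on 6, 13.05 on 2, 13.42 on 3, 12.66 on 4 and 13.49 on 5, beside 9.96 to 11.93 on treated arrays. Both untreated arrays 1 and 6 thus lay within the treated range.

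PDK3, a kinase that turns off pyruvate dehydrogenase, was the 1 gene of the list without overlap, at 6.35 to 6.90 on untreated and 3.62 to 6.27 on treated arrays. Its change was -1.10 ± 0.35 with 12 and -1.12 ± 0.42 with 10 arrays. PFKL, a liver-type phosphofructokinase, owed much of its 12-array value to arrays 4 and 5 (7.71 and 7.62 against 5.11 to 6.21 on the other 4), and went from -1.37 ± 0.39 to -0.76 ± 0.27. ENO2 had -0.88 ± 0.26 and -0.63 ± 0.25.

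The split among untreated arrays showed in the list as a whole. Its median level relative to the 4 untreated arrays other than 4 and 5 was 0.18 on untreated array 2 and 0.50 on 3, but -0.49 on 1 and -0.13 on 6, where the treated arrays held -0.61 to -0.13. In 8 of the 12 members with all values both arrays 2 and 3 lay above both arrays 1 and 6, whereas among all genes this was so in 30.4%. The same was true of 45.9% of the genes with lower and 9.88% of those with higher values at an unadjusted p under 0.05. The part of this pairing of untreated arrays in the lower values was not tested.

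The promoter of PGK1 is shown because PGK1 had the most negative change of the list and its window holds matches to the core of the hypoxia response element, ACGTG, to which HIF-1 binds. This motif was found on either strand in 18.5% of the 35116 windows and in 28.9% of the 5301 tested genes with a window, and in 9 of the 13 members, among them GPI, ALDOC, GAPDH, ENO2 and PDK3. The members HK2, TPI1 and LDHA hold it too, with changes of 0.03, 0.24 and -0.34. The window lies at chrX:78103998-78104247 (GRCh38.p14, plus strand, RefSeq), and capitals mark the 2 matches, the second of them on the other strand.
PGK1: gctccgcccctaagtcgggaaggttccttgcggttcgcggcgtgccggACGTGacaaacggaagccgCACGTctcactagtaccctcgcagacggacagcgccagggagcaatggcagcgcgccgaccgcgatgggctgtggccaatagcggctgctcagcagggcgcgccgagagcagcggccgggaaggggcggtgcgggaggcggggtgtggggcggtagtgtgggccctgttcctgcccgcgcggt

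HIF1A, the oxygen-regulated subunit of HIF-1, had a change of -0.60 ± 0.22 with 12 and -0.50 ± 0.23 with 10 arrays. Of 7 measured hypoxia response genes, BNIP3L, a receptor for mitochondrial autophagy (-1.32 ± 0.40 and -1.02 ± 0.44, with -1.08 for its second probe), the collagen prolyl hydroxylase P4HA2 (-0.60 ± 0.20 and -0.36 ± 0.16) and HIF1A were lower at an unadjusted p under 0.05 with 12 arrays, and 2 of the 7 with 10. The other 4 had changes of -0.15 to 0.16, and the list's medians were -0.15 and -0.34. At that p, 3.9% of all genes were lower with 12 arrays and 3.3% with 10. Untreated arrays 1 and 6 lay within or near the treated range for HIF1A, at 6.12 and 5.91 beside 5.75 to 6.38. For BNIP3L untreated array 1 (6.76) lay below every treated array (6.79 to 7.55), and untreated array 2 (7.56) just above them.

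**Figure D4:**
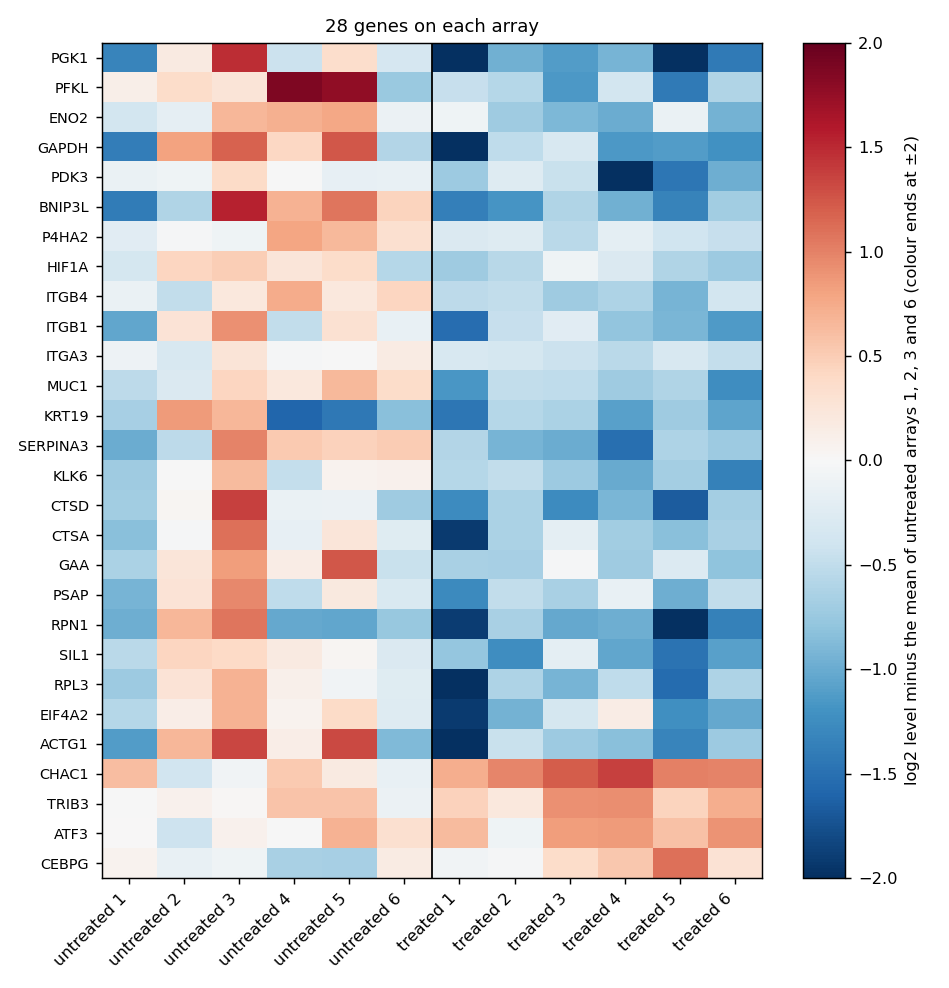
Level of 28 genes on each array as the log2 difference from the mean of untreated arrays 1, 2, 3 and 6 (colour scale in log2 units, ending at 2 on either side); a black line separates untreated from treated arrays. Many glycolytic and lysosomal genes are low on treated arrays and high on untreated array 3, while untreated array 1 is low too for GAPDH, ITGB1 and RPN1.

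Of 11 measured epithelial, keratin and junction genes 5 were positive and 6 negative with 12 arrays, and 4 and 7 with 10. At an unadjusted p under 0.05, 0 were higher in either comparison, MUC1 was lower with 12 arrays, and MUC1 and KRT19 with 10. The shares over all genes were 5.11% higher and 3.9% lower with 12 arrays, and 2.4% and 3.3% with 10. MUC1, a mucin of the apical surface, lay at 6.46, 7.28 and 7.63 on untreated and 5.75, 6.34 and 6.49 on treated arrays, with a change of -0.93 ± 0.23 and -0.79 ± 0.24. The groups overlapped through untreated array 1, which held 6.46. ITGB4, the integrin subunit of hemidesmosomes, had -0.77 ± 0.21 and -0.61 ± 0.20. ITGA3, which pairs with ITGB1 as a laminin receptor, had -0.40 ± 0.16 and -0.41 ± 0.16, and ITGB1 itself -0.81 ± 0.31 and -0.84 ± 0.34. ITGB7, an integrin subunit of lymphocytes, had 0.55 ± 0.22 and 0.34 ± 0.20.

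Of 19 measured integrin and focal adhesion genes 2 were higher and 4 lower at an unadjusted p under 0.05 with 12 arrays. With 10 arrays 0 were higher and 3 lower. The shares over all genes were 5.11% and 3.9% with 12 arrays, and 2.4% and 3.3% with 10. The list's medians were -0.02 and -0.14. The keratins differed in sign. KRT18 had 0.38 ± 0.26 with 12 arrays, from the 4 of each group with a value in the deposited table, and 0.32 ± 0.26 with 10. KRT19 had -0.41 ± 0.38 and -0.91 ± 0.33, and KRT8 -0.52 ± 0.48 and -0.78 ± 0.54, and both were higher on untreated arrays 2 and 3 than on all other untreated arrays. LIMS2, a focal adhesion adaptor without overlap of the groups, repeated the course of RAB21, with 10.47 and 9.69 on untreated arrays 4 and 5, 6.14 to 6.47 on the other 4 and 4.89 to 6.09 on treated arrays, beside a median of 10.69 over the 8 SK-MEL-28 arrays.

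Because Amblyomin-X is itself a protease inhibitor, 29 measured extracellular proteases, coagulation factors and inhibitors were listed. SERPINA3, a serpin that inhibits chymotrypsin-like proteases, lay at 9.54, 11.02 and 11.52 on untreated and 9.02, 9.70 and 9.95 on treated arrays, with a change of -1.06 ± 0.30 and -0.89 ± 0.34. Untreated array 1 held the 9.54 within the treated range. The trypsin-like kallikrein KLK6 had -0.74 ± 0.23 and -0.80 ± 0.25. These were the 2 genes lower at an unadjusted p under 0.05 with 12 arrays, and 0 were higher. With 10 arrays 2 were lower and 2 higher, and the list's medians were -0.09 and -0.06. The shares over all genes were 3.9% lower and 5.11% higher with 12 arrays, and 3.3% and 2.4% with 10.

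Among cytoskeleton genes, the actin gene ACTG1 (-1.36 ± 0.46 and -1.12 ± 0.52) ran from 4.96 to 7.20 on treated arrays, and untreated arrays 1 and 6 lay within that range. The actin-severing protein gelsolin (GSN) had -1.27 ± 0.44 and -0.50 ± 0.21, with arrays 4 and 5 at 9.38 and 10.10 and an SK-MEL-28 median of 8.82. Tubulin TUBA1C (0.55 ± 0.19 and 0.38 ± 0.17) and the dynein light intermediate chain DYNC1LI1 (0.54 ± 0.21 and 0.34 ± 0.19) were on the higher side. DYNC1LI1 lay within 10.91 to 11.09 on all treated arrays, but untreated array 1 (11.26) was above them. Of 30 tubulin and motor genes 2 were higher and 0 lower at an unadjusted p under 0.05, both with 12 and with 10 arrays. They were TUBA1C and DYNC1LI1 with 12 arrays, and TUBA1C and TUBGCP3 (0.58 ± 0.30 and 0.90 ± 0.29) with 10. The shares over all genes were 5.11% higher and 3.9% lower with 12 arrays, and 2.4% and 3.3% with 10.

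The membrane raft protein MYADM (-1.0 ± 0.30 and -1.04 ± 0.35), the CAP-Gly protein CLIP4 (-0.78 ± 0.26 and -0.77 ± 0.29), MIF4GD, a partner of the histone mRNA binding protein (-0.69 ± 0.23 and -0.72 ± 0.26), and the RNA-binding exosome cofactor RBM7 (-0.88 ± 0.25 and -0.50 ± 0.15) complete the named genes whose treated arrays all lay below all untreated arrays. In RBM7 arrays 4 and 5 held 7.46 and 7.44 beside 6.20 to 6.39 on the other 4. MYADM and MIF4GD each had 1 treated array far below the rest, treated array 1 in both.

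Translation genes went both ways. RPL3, a protein of the large ribosomal subunit, had -1.21 ± 0.38 and -1.21 ± 0.46, with 7.73 on treated array 1 and 9.24 to 10.28 on the other 5, beside 10.06 to 11.48 on untreated arrays. RPS28 (0.43 ± 0.17 and 0.39 ± 0.17) and RPL28 (0.61 ± 0.25 and 0.73 ± 0.26) had positive changes. Over 49 cytosolic ribosomal proteins 2 were higher and 1 lower at an unadjusted p under 0.05 with 12 arrays, beside 5.11% and 3.9% of all genes. With 10 arrays 3 were higher and 1 lower, beside 2.4% and 3.3%. The list's medians were -0.06 and 0.02. Ribosomal protein genes have many near-identical copies, so a probe may read more than 1 of them.

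The initiation factors EIF4A2, an RNA helicase (-0.96 ± 0.31 and -0.89 ± 0.36), and EIF4G2, which serves cap-independent initiation (-1.18 ± 0.47 and -1.04 ± 0.56), had negative changes, and EIF4G2 stood at 4.43 and 5.82 on treated arrays 1 and 5 while the other 4 held 7.25 to 7.64. EIF3G had 0.61 ± 0.21 and 0.42 ± 0.19, and the elongation factor EEF1A2 -0.61 ± 0.25 and -0.75 ± 0.24. Of 45 translation factors 2 were higher and 4 lower with 12 arrays, beside 5.11% and 3.9% of all genes. With 10 arrays 2 were higher and 3 lower, beside 2.4% and 3.3%.

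The lists of nuclear genes were read beside the share of positive changes over all genes, 55.4% with 12 arrays and 45.7% with 10. Positive values were found in 26 and then 24 of 43 histone modifying and remodelling enzymes, in 24 and 17 of 40 RNA polymerase II, general factor and Mediator genes, and in 30 and 16 of 39 nuclear pore and transport genes, so that negative changes were the more frequent with 10 arrays in the latter 2 lists. SUV39H1, a methyltransferase that marks heterochromatin, lay at 6.50, 8.0 and 8.26 on untreated and 8.26, 8.59 and 8.85 on treated arrays. The groups met at 8.26 without crossing, and arrays 4 and 5 (6.50 and 6.83) were far below the other 4. Its change was 0.98 ± 0.29 with 12 and 0.51 ± 0.16 with 10 arrays. The chromatin remodelling ATPase SMARCA4 had 0.66 ± 0.25 and 0.36 ± 0.21, and the histone demethylase KDM5B -0.92 ± 0.34 and -0.56 ± 0.33. Of the histone modifying and remodelling enzymes 4 were higher and 1 lower at an unadjusted p under 0.05 with 12 arrays, and 2 and 0 with 10. The shares over all genes were 5.11% and 3.9% with 12 arrays, and 2.4% and 3.3% with 10.

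The RNA polymerase subunits POLR2D (0.99 ± 0.31 and 0.51 ± 0.19), POLR2F (0.52 ± 0.21 and 0.34 ± 0.20) and POLR2K (0.43 ± 0.18 and 0.38 ± 0.18, with -0.04 for its second probe) and the TATA-binding protein TBP (0.84 ± 0.33 and 0.54 ± 0.32) had positive changes. Of the 40 such genes 5 were higher and 0 lower with 12 arrays, beside 5.11% and 3.9% of all genes. With 10 arrays 2 were higher and 0 lower, beside 2.4% and 3.3%. Nuclear pore subunits NUP58 (0.72 ± 0.23 and 0.43 ± 0.18), NUP93 (0.66 ± 0.23 and 0.39 ± 0.19) and NUP133 (0.76 ± 0.29 and 0.44 ± 0.26) also had positive changes. Beside the same shares, 4 of the 39 genes were higher and 0 lower with 12 arrays, and 1 and 1 with 10. For each of these nuclear pore genes untreated arrays 4 and 5 held the lowest levels of all 12.

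Of 50 measured G2 and mitosis genes 43 had a positive change with 12 arrays, beside 55.4% of all genes. At an unadjusted p under 0.05, 14 were higher and 0 lower, beside 5.11% and 3.9%, and the median was 0.39. In the 10-array comparison 34 were positive, 5 were higher and 0 lower, beside 45.7%, 2.4% and 3.3% of all genes. The median was then 0.15, the highest of the 51 lists. The list's median level relative to the other 4 untreated arrays was -0.90 on untreated array 4 and -0.83 on 5, beside -0.36 to 0.36 on those 4 and -0.13 to 0.37 on treated arrays.

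CKS1B, a subunit of cyclin-dependent kinases that helps mark p27 for degradation, was the list's 1 gene without overlap. It lay at 7.97, 8.23 and 8.44 on untreated and 8.59, 8.74 and 8.89 on treated arrays, with 0.53 ± 0.16 and 0.50 ± 0.14 (0.31 for its second probe). GTSE1, a microtubule-associated protein of G2, had 1.09 ± 0.30 and 0.76 ± 0.28, the spindle kinesin KIF2C 1.19 ± 0.35 and 0.64 ± 0.24, and the centromere protein CENPF 0.80 ± 0.24 and 0.46 ± 0.17. CENPF lay at 6.14 to 6.42 on treated arrays, while its untreated levels ran from 4.78 on array 5 to 6.20 on array 1.

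Of 30 replication genes 23 were positive with 12 arrays and 15 with 10, beside 55.4% and 45.7% of all genes, with medians of 0.36 and -0.01. The helicase subunit MCM7 had 0.70 ± 0.23 and 0.42 ± 0.18, and its lowest levels were on untreated arrays 4 and 5 (9.56 and 9.16). For the mitochondrial ribosomal proteins, 61 genes, the median went from 0.27 to -0.02 in the same way.

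Of 37 measured proteasome genes 27 were positive, 7 were higher and 2 lower at an unadjusted p under 0.05 with 12 arrays, beside 55.4%, 5.11% and 3.9% of all genes. With 10 arrays 23 were positive, 2 higher and 1 lower, beside 45.7%, 2.4% and 3.3%, with medians of 0.24 and 0.09. PSMB2, a non-catalytic beta subunit of the core particle, lay at 11.06, 11.57 and 11.80 on untreated and 11.85, 11.93 and 12.29 on treated arrays. The groups did not overlap, but the gap between them was narrow, and the change was 0.50 ± 0.18 with 12 and 0.32 ± 0.15 with 10 arrays. The core subunit PSMB1 had 0.55 ± 0.17 and 0.48 ± 0.17, and PSMB5, the chymotrypsin-like subunit, -0.85 ± 0.31 and -0.66 ± 0.34.

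**Figure D5:**
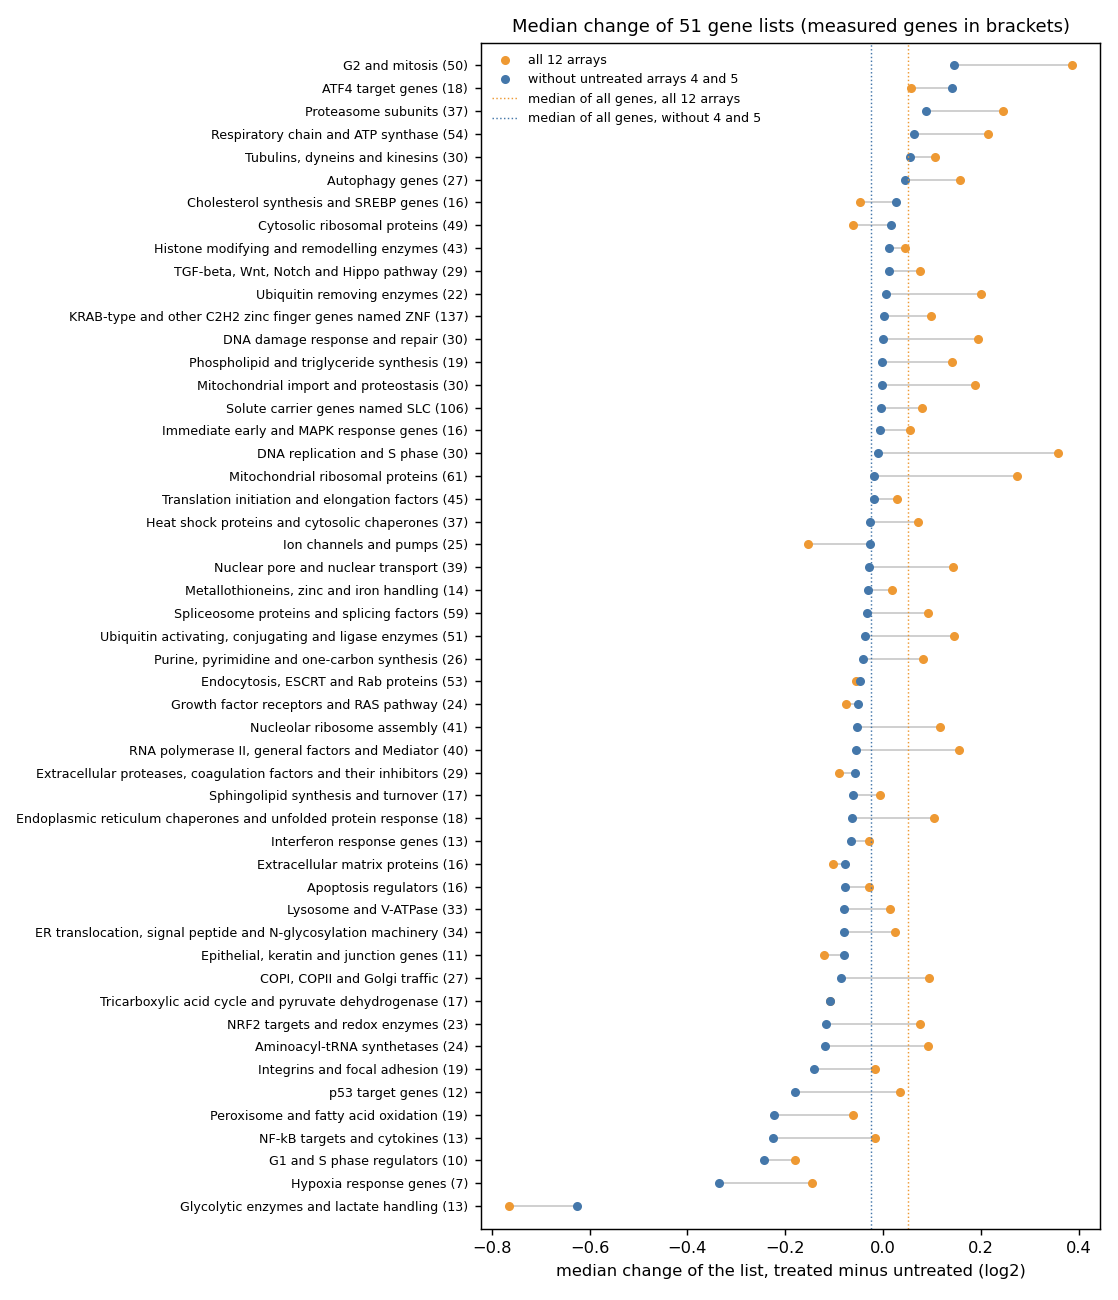
Median change (treated minus untreated, log2) of 51 gene lists in the 12-array comparison (orange) and without untreated arrays 4 and 5 (blue), with the number of measured genes in brackets and dotted lines at the medians of all genes. The glycolysis list lies lowest in both, at -0.77 and -0.63, and most other lists shift left when the 2 arrays are left out, as the G2 and mitosis list does from 0.39 to 0.15.

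Over the 51 lists, 33 had a positive median with 12 arrays and 13 with 10. In 36 lists untreated arrays 4 and 5 both lay below the other 4 untreated arrays. With 10 arrays 45 of the 51 medians lay within 0.15 of 0, beside 38 with 12 arrays, and they ran from -0.63 for glycolysis to 0.15 for G2 and mitosis. The lists share genes and arrays, so they are no independent measurements.

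Single genes outside these themes include AHCY, the enzyme that removes S-adenosylhomocysteine (-0.83 ± 0.30 and -1.0 ± 0.33), and MAT2A, which makes S-adenosylmethionine (-0.50 ± 0.21 and -0.47 ± 0.22, from 5 untreated arrays with 12). In both the treated arrays lay below the 4 untreated arrays other than 4 and 5 as far as these had a value. The AP-1 subunit FOSL1 had 1.01 ± 0.40 and 0.49 ± 0.32, with 8.72 and 7.68 on untreated arrays 4 and 5 and 9.58 or more on treated arrays. The groups overlapped, as the mean of the other 4 untreated arrays lay above the lowest treated level of FOSL1. The zinc exporter SLC30A1 had 0.51 ± 0.20 and 0.56 ± 0.20.

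Also without overlap, all on the higher side, were RPS19BP1, a binding partner of a ribosomal protein (0.78 ± 0.25 and 0.44 ± 0.18), the divergent transcript PCMTD1-DT (0.68 ± 0.21 and 0.44 ± 0.17), the scaffold protein ANKS1B (0.56 ± 0.17 and 0.49 ± 0.17) and the aldehyde dehydrogenase family member ALDH16A1 (0.53 ± 0.18 and 0.34 ± 0.15). In RPS19BP1, PCMTD1-DT and ALDH16A1 untreated arrays 4 and 5 held the lowest levels. That the treated arrays lay above the other 4 untreated arrays in all 4 genes follows from this choice and is no further result.

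Second probes gave a measure of how far a value belonged to the gene rather than the probe. For 551 genes with more than 1 probe, the changes of the 2 brightest probes had the same sign in 309 with 12 arrays and in 282 with 10. Of the 50 whose first probe had an unadjusted p under 0.05 with 12 arrays, 31 had a second probe of the same sign, and with 10 arrays 16 of 22 did. Across genes the changes of first and second probe correlated with r = 0.163 and 0.107, values that describe these genes and carry no test.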

How the data were processed

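The deposited table holds the authors' normalized intensities on a linear scale for 12 Mia-PaCa-2 arrays. No source used here states how they were normalized, and the values fit a quantile normalization within each line. The single-array files deposited by the authors hold the intensity of each probe before it, with medians of 68.1 to 156, and were used in 1 alternative. The brightest and dimmest probes of an array can lack a value in the table. The number of arrays limits the precision.

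Normalized intensities were put on the log2 scale and tested by limma (version 3.58.1, under R 4.3.3; lmFit, eBayes, Benjamini-Hochberg adjustment over all 11604 probes, threshold 0.05). Groups and replicate numbers are those of the titles, whereas the description field numbers every untreated array 1. The deviations of arrays with the same number correlated by more than 0.1 for 3 of the 6 numbers only (r of -0.187 to 0.43), so the numbers were not taken to pair the samples. Probes were named from the platform annotation: 6939 had 1 gene symbol, 357 several and 4310 none. Each gene was read from its brightest probe by mean level. Alternatives left out arrays, dim or incomplete probes, and changed the weights, the block, the moderation and the normalization. limma was also tested on simulated data.

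Named were the 10 genes with the smallest p per direction in each comparison, up to 10 per direction without overlap of the groups, and up to 4 members per list with the smallest p beside those without overlap. From some lists fewer members were named, with MCM7 alone for replication, and some others, such as KRT8 and KRT19, were named besides. From other lists only counts are given. One gene that this rule names and 1 further list are not reported here. The comparison, the 51 lists and the marker lists were chosen with earlier results of these data known, so counts over lists are descriptions, without a set test. Promoter windows came from RefSeq tables, and no genome was used. Python 3.11.15, pandas 2.3.3, NumPy 2.4.6 and matplotlib 3.10.9 were used.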

Additional observations from a re-analysis of the deposited data

Results flagged for a closer look

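A set of 103 named genes gave 206 groups, 203 with values on 6 arrays, 1 on 5 and 2 on 4. In 13 groups 1 array lay far from the others, by a gap over the group's range above Dixon's critical value for its number of arrays, which is 0.625 for 6. For KRT18, with 4 arrays, the gap was 0.915 of the range. Chance alone gives about 1 in 20 such groups. All levels are log2 normalized intensities.

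On treated array 1, EHF lay at 4.246 beside 5.717 to 6.06 on the other treated arrays, MYADM at 3.415 beside 5.044 to 5.501, MIF4GD at 5.557 beside 6.637 to 7.005, CTSA at 6.617 beside 7.695 to 8.322, and RPS19BP1 at 7.525 beside 6.996 to 7.12. Treated array 5 held ALDH16A1 at 8.217 beside 7.797 to 7.926, DAD1 at 7.567 beside 8.191 to 8.536 and MAT2A at 5.728 beside 6.27 to 6.534. WARS1 was at 6.064 on treated array 3 beside 4.071 to 4.817, and ATF3 at 4.841 on treated array 2 beside 5.515 to 5.826. Of the untreated arrays, array 3 held PDK3 at 6.9 beside 6.355 to 6.522 and CTSD at 7.741 beside 5.656 to 6.402, and array 2 held KRT18 at 13.75 beside 13.08 to 13.13 on the 3 others with a value.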

How the results depend on the processing

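The count of 0 probes past the adjusted threshold became 1 with limma array weights, a dim probe of N4BP2L2 with a change of -2.04 (adjusted p = 0.0457; -2.13 ± 0.32 and 0.120 in the 12-array comparison), while 3 other probes of the gene were not called. The smallest adjusted p ran from 0.0457 to 0.884 over the 20 alternatives. The unadjusted counts of 602 higher and 511 lower probes changed most with single untreated arrays. Leaving out 1 array at a time gave 372 to 1021 higher and 271 to 866 lower probes, with 1021 and 866 without untreated array 1, 408 and 281 without untreated array 4, and 372 and 271 without untreated array 5. Without arrays 4 and 5 together they were 344 and 292, and without the dimmest 25% of probes the lower count was 304. With the replicate number as a block, although an array correlated best with its own number for 2 of the 6 numbers only, the counts were 625 and 582, and with the block and without arrays 4 and 5 they were 348 and 388, and neither fit called a probe. The cause of these shifts was not tested, beyond the smaller number of arrays or probes that some alternatives use by construction. The same 103 named genes kept their direction in 2029 of 2029 values under the alternatives, and none passed the adjusted threshold. These genes were mostly chosen by their p or lack of overlap on the same arrays. The choice thus largely fixes the sign, and the tally is no sign of stability. Of 1071 list medians under the alternatives, 1036 moved by less than the spread between arrays and 35 by more, among them 10 without arrays 4 and 5 and 12 with the block and without those arrays. By brightness, the standard error of a change had a median of 0.256 in the dimmest of 10 equal groups of genes by mean level and 0.247 in the brightest.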
